A study of Mus musculus with 4 samples.

Results

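The pre-B receptor was followed through 8 of the 32285 genes counted in the series. The list was fixed by name and holds the surrogate light chain genes Vpreb1, Vpreb2 and Igll1, the related gene Vpreb3, the mu heavy chain gene Ighm, the signalling pair Cd79a and Cd79b, and the adaptor gene Blnk. They were measured in single mouse bone marrow cells from 4 libraries of 1 genotype each, namely a control, a deletion of Mll3, a deletion of Mll4, and a deletion of both. Mll3 and Mll4 are histone methyltransferases encoded by Kmt2c and Kmt2d. By their labels all 4 were sorted for CD45.2+ cells without lineage markers but with Sca1 and Kit (LSK, the gate for stem cells and early progenitors of the blood) at 10 weeks after transplantation. The Cre line or other driver of the deletions, the number of mice per library and the genotype of the hosts are not given in the sources used here.

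The pre-B receptor is the first form of the B-cell receptor. A developing B cell that has joined the segments of a heavy chain gene pairs that chain with a surrogate light chain, built from a VpreB protein and the protein of Igll1 (lambda 5), before any true light chain exists. The complex reaches the surface with the Cd79a and Cd79b proteins, whose tails carry the signal to kinases and, through the adaptor Blnk, further into the cell. In bone marrow the surrogate light chain genes are known for their restriction to pro-B and pre-B cells. These are later stages than the stem and progenitor cells that an LSK sort aims for.

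A barcode was kept if it had 1000 genes or more and no more than 10% of its UMIs (unique molecular identifiers, each standing for 1 captured transcript) on mitochondrial genes. That left 7274 control, 6101 Mll3-label, 4793 Mll4-label and 4748 Mll3/4-label cells with 50792614 to 120700343 UMIs per library and median depths of 8920 to 21400 UMIs per cell. The Mll4-label library stood apart in that 62.2% of its barcodes passed, against 92.4% to 94.7% in the others, and its granulocyte-monocyte markers summed to 10271 CPM (UMIs per 1000000 UMIs of the library) against 40.0 to 1265 elsewhere. Of the targeted genes, Kmt2c stood at 68.9, 35.3, 61.3 and 42.3 CPM in the control, Mll3-label, Mll4-label and Mll3/4-label libraries. Kmt2d stood at 24.6, 21.6, 22.6 and 25.4 in the same order, so it was not clearly lower under either label that names Mll4, and the libraries are called by their labels throughout. Counts at the end of a transcript need not show a deletion elsewhere in the gene. Kit, a gene of the sort, was present in all 4 libraries at 215 to 362 CPM. Only 61 cell barcodes occurred among the kept cells of more than 1 library.

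The Vpreb genes are near copies. Their coding transcripts were identical at 739 of 759 aligned bases (97.4%), so it matters whether 3-prime reads can tell them apart. In the last 300 bases 288 matched, and 0 of the 211 stretches of 90 bases in that part of Vpreb1 occurred unchanged in Vpreb2. Over the whole transcript 107 of 677 such stretches (15.8%) did, with a longest shared run of 196 bases, and reads from there cannot be told apart. A stretch of 106 bases is shown because the loci are almost the same there too. It lies before the RefSeq start of Vpreb1 and before the annotated gene start of Vpreb2. In Vpreb1 it falls inside the annotated gene, which begins farther upstream, at 16870843. The stretches differed at 2 positions, G12T and C104T, counted from the left end with the Vpreb1 base first and printed in capitals. Sequences are RefSeq's for GRCm38.p6, 5′ to 3′ on the strand of the gene. Vpreb1 lies on the minus strand at chr16:16869256-16869361 and Vpreb2 on the plus strand at chr16:17980315-17980420.
Vpreb1: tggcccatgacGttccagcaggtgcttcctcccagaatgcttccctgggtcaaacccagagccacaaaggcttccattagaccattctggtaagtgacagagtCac
Vpreb2: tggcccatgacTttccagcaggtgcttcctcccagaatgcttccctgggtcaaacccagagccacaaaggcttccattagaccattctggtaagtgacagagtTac

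Sequence before a RefSeq start was found for 6 of the 8 members (Cd79b and Ighm had no entry). The 250 bases before each such start were searched on both strands for motifs of B-lineage factors. The EBF1 core CCCNNGGG occurred in 1 of the 6, Igll1, against 11.8% of 32851 mouse promoters. The E-box CAGNTG, bound by E2A, occurred in 6 of 6 against 44.8% of promoters. The Ets core GGAAGT occurred in Vpreb3, Cd79a and Blnk (19.7% of promoters), and the Ikaros core TGGGAA in Vpreb2 alone (21.6%). The octamer ATTTGCAT, a motif of immunoglobulin promoters that was added after the sequences had been read, occurred in Vpreb3 and Blnk against 1.60% of promoters. Of the 18 matches in the 6 windows 1 pair of different motifs overlapped, the Ikaros core and an E-box of Vpreb2. In Vpreb2 and Cd79a a protein-coding transcript already starts inside the 250 bases, after 113 and 134 of them. The Ikaros core and 1 E-box of Vpreb2 and the Ets core of Cd79a lie past that start. The searched windows of Vpreb1 and Vpreb2 thus cover unlike stretches. The annotated genes Vpreb1, Vpreb3 and Blnk begin farther upstream than their windows, at 16870843, 75943057 and 40994535. Their windows therefore lie inside the annotated genes. A match says only that the letters are there. Stretches before the RefSeq starts of members that moved together are shown for comparison. Capitals mark the EBF1 core in Igll1 (chr16:16863986-16864235, minus strand), the octamer in Vpreb3 (chr10:75948050-75948299, plus strand) and Blnk (chr19:40994222-40994471, minus strand), and an E-box in Cd79a (chr7:24897247-24897380, plus strand).
Igll1: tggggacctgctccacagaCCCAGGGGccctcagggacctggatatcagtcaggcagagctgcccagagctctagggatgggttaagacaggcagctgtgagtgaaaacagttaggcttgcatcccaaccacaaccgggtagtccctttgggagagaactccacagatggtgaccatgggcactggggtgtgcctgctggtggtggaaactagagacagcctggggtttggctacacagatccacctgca
Vpreb3: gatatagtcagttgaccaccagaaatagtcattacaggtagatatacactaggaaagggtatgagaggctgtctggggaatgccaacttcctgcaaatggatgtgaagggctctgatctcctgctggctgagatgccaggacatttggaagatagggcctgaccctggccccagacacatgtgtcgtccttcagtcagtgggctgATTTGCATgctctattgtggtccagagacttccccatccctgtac
Blnk: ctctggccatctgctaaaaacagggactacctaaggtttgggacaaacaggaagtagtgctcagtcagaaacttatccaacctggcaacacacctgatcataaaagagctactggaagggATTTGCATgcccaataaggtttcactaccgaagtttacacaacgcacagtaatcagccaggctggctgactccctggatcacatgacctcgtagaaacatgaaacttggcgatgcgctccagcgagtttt
Cd79a: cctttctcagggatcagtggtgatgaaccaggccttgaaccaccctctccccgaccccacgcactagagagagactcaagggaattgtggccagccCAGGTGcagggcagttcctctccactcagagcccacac

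Over all kept cells, 6 of the 8 members were at least 2-fold above control in the Mll3-label library and 6 of 8 in the Mll3/4-label library, but 2 of 8 in the Mll4-label library. In the Mll3-label library these were Vpreb1, Vpreb2, Igll1, Vpreb3, Cd79a and Blnk, where 1.09% of the 6125 genes averaging 20 CPM or more were as far above control. Those of the Mll3/4-label library were Vpreb1, Igll1, Vpreb3, Cd79a, Cd79b and Blnk, against 6.07% of all genes. In the Mll4-label library they were Ighm and Blnk, against 4.98% of all genes, and 1 member, Vpreb2, was at least 2-fold lower, against 3.28%. The median log2 ratio over the 8 members was 3.02, -0.17 and 8.06 in the Mll3-label, Mll4-label and Mll3/4-label libraries, beside 0.10, -0.13 and -0.11 over all genes. Of the 8 members 7 passed the minimum of 20, several through their level in the Mll3/4-label library, and Vpreb2 did not. Since each genotype has a single library, nothing here is checked by replicates, no p-value was computed, and every interval, at the 95% level, covers counting error only.

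Vpreb1, the main VpreB protein gene, stood at 7.74 CPM in the control (7.25 to 8.26), 72.9 (71.3 to 74.5) in the Mll3-label, 4.23 (3.87 to 4.62) in the Mll4-label and 3140 (3125 to 3156) in the Mll3/4-label library. The order of the libraries was thus Mll3/4-label, Mll3-label, control and Mll4-label, and no neighbouring intervals met. Relative to control the level was 9.41-fold (8.79 to 10.1), 0.547-fold (0.490 to 0.610) and 406-fold (380 to 433) in the Mll3-label, Mll4-label and Mll3/4-label libraries.

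Igll1, which supplies the constant-like part of the surrogate light chain and lies next to Vpreb1 on chromosome 16 (16860671 to 16863985), followed the same order. Its levels were 2.72, 31.2, 1.91 and 1045 CPM in the control, Mll3-label, Mll4-label and Mll3/4-label libraries. The ratio to control was 11.5 (10.2 to 12.9), 0.703 (0.591 to 0.834) and 384 (344 to 429). Vpreb3, a VpreB-like gene on chromosome 10 whose protein binds free heavy chains inside the cell, was at 5.43, 42.9, 4.26 and 1859 CPM. That was 7.91-fold (7.28 to 8.60), 0.784-fold (0.697 to 0.882) and 342-fold (317 to 370) of control, again with the Mll3/4-label library highest. The Mll4-label library was lowest, but its log2 ratio of -0.35 turned to 0.03 without the cells with the most UMIs and to 0.29 with equal weight per cell. In the Mll3/4-label library the log2 ratio of Vpreb3 was 8.42, and 7.75 with a stricter cell filter (2000 genes or more, no more than 5% mitochondrial) and 9.09 with equal weight per cell.

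Vpreb2 departed from the other surrogate light chain genes. It was at 1.21 (1.02 to 1.42) CPM in the control, 10.0 (9.42 to 10.6) in the Mll3-label, 0.481 (0.365 to 0.621) in the Mll4-label and 0.610 (0.415 to 0.866) in the Mll3/4-label library. The last of these rests on 31 UMIs, in a library with 159509 UMIs of Vpreb1. The ratio to control was 8.29 (6.96 to 9.94) in the Mll3-label library, so Vpreb1 and Vpreb2 were raised together there, but 0.506 (0.331 to 0.750) in the Mll3/4-label library, where Vpreb1 was raised 406-fold. Intervals of the Mll4-label and Mll3/4-label libraries overlapped. Whether the Vpreb2 locus of these mice differs in sequence from the reference, which would change how its reads are counted, was not tested.

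**Figure D1:**
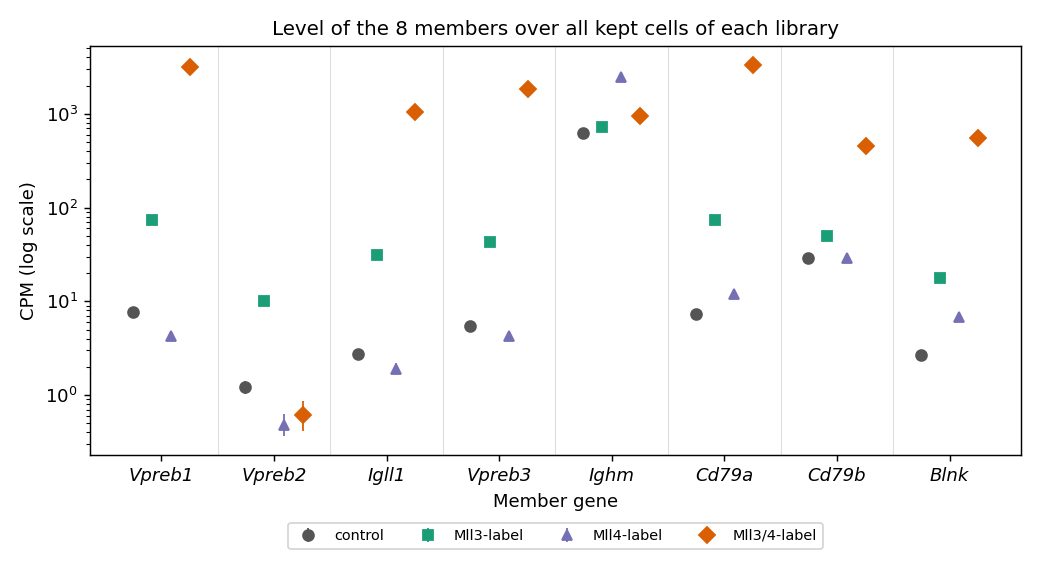
Level of each member in CPM (log axis) over all kept cells, 1 point per library with an exact Poisson interval, often smaller than the point. The Mll3/4-label library is highest for 6 of the 8 genes, while its Vpreb2 is at 0.610 and its Ighm lies below the Mll4-label library.

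As a share of all Vpreb1 and Vpreb2 UMIs, Vpreb2 made up 13.5% (11.5 to 15.7) in control cells, 12.1% (11.4 to 12.8) in the Mll3-label, 10.2% (7.83 to 13.0) in the Mll4-label and 0.0194% (0.0132 to 0.0276) in the Mll3/4-label library. The first 3 shares had overlapping intervals, and the fourth was lower by orders of magnitude. The comparison can be made in cells that clearly carry the partner chain, those with at least 5 Igll1 UMIs before thinning. Among these, Vpreb2 was detected in 15 of 15 control, 149 of 164 Mll3-label, 6 of 10 Mll4-label and 17 of 3775 Mll3/4-label cells. Their median Vpreb1 count was 37.0, 42.5, 42.5 and 35.0 UMIs per cell, whereas the median Vpreb2 count was 7, 4, 2 and 0. These counts are not thinned, and the Mll3/4-label library has the lowest median depth. Of the kept Mll3/4-label cells 18 held a Vpreb2 UMI at all, and 15 of them held exactly 1. The cell with the highest count held 11 Vpreb2 beside 64 Vpreb1 UMIs. Vpreb2 lies over a megabase from Vpreb1 on the same chromosome, at 17980428 to 17981273.

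Cd79a, the immunoglobulin alpha chain of the signalling pair, stood at 7.24 (6.77 to 7.74), 74.3 (72.7 to 76.0), 12.1 (11.5 to 12.7) and 3340 (3324 to 3355) CPM in the control, Mll3-label, Mll4-label and Mll3/4-label libraries. Its ratio to control was 10.3 (9.56 to 11), 1.67 (1.54 to 1.82) and 461 (431 to 494), the last the highest fold among the members. Of its UMIs in the Mll4-label library 73.9% came from 133 cells with at least 1000 UMIs over Igkc, Iglc1, Iglc2, Iglc3 and Jchain, a class called high-immunoglobulin cells here. Without high-immunoglobulin cells in any library its log2 ratio was -0.45 in the Mll4-label library in place of 0.74, 3.98 in the Mll3-label library in place of 3.36, and 9.55 in the Mll3/4-label library in place of 8.85.

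Cd79b, the beta chain, had a more even level. It stood at 28.8 (27.8 to 29.8), 49.9 (48.5 to 51.2), 28.9 (28.0 to 29.9) and 448 (442 to 454) CPM, and was 1.73-fold (1.66 to 1.81), 1.01-fold (0.959 to 1.05) and 15.5-fold (15.0 to 16.1) of control. In the control it was detected outside the B lineage too, though in a smaller share of cells. After thinning every cell to 3000 UMIs, a UMI was found in 8.47% of all control cells and in 6.19% (2.30 to 13.0) of control cells with granule protein genes. The latter, used as a type that should lack the receptor, are cells with at least 20 thinned UMIs over Mpo, Elane, Prtn3 and Ctsg. Of the 13 control cells with at least 2 of Ebf1, Pax5, Rag1 and Rag2, 69.2% (38.6 to 90.9) held a thinned Cd79b UMI.

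Blnk, the adaptor that links the receptor's kinases to phospholipase C, stood at 2.66 (2.37 to 2.97), 17.9 (17.1 to 18.7), 6.77 (6.31 to 7.25) and 552 (545 to 558) CPM. The ratio to control was 6.74 (5.98 to 7.61), 2.55 (2.24 to 2.91) and 208 (186 to 233), and no intervals of the 4 libraries met. With high-immunoglobulin cells left out, Ighm was the single member at least 2-fold above control in the Mll4-label library.

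Ighm, the constant region of the mu heavy chain (chromosome 12, 113418558 to 113422730), gave a different order: 617 (613 to 622) in control cells, 728 (723 to 733) in the Mll3-label, 2450 (2441 to 2459) in the Mll4-label and 956 (947 to 964) CPM in the Mll3/4-label library. Most of it lay in few cells. The 33 control, 31 Mll3-label and 133 Mll4-label high-immunoglobulin cells held 91.7%, 88.3% and 94.1% of the Ighm UMIs of their library, and the 3 such cells of the Mll3/4-label library held 11.8%. Without those cells the levels were 51.3, 85.7, 149 and 844 CPM, and the Mll3/4-label library was highest.

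The kappa light chain gene Igkc, which a true B-cell receptor uses in place of the surrogate chain, was set beside Ighm in each class. In high-immunoglobulin cells Ighm UMIs were 0.277, 0.176, 0.321 and 0.220 times the Igkc UMIs in the control, Mll3-label, Mll4-label and Mll3/4-label libraries. B-marker cells are those with at least 2 of the markers Ebf1, Pax5, Rag1 and Rag2 after thinning, high-immunoglobulin cells left out. In them the ratio was 28.0, 26.3, 1.28 and 38.4, on 28, 237, 55 and 12340 Ighm and 1, 9, 43 and 321 Igkc UMIs. Granule-gene cells had a ratio of 25 in the control and 10.0 in the Mll3-label library, on 25 and 30 Ighm and 1 and 3 Igkc UMIs. With so few Igkc UMIs these ratios are loose, and a high ratio is not taken to mark B-marker cells. Granule-gene cells of the Mll4-label library had a ratio of 0.656, and its remaining cells 0.696, where the remaining cells of the control had 1.63. After thinning, Ighm was detected in 28.3% of the Mll4-label granule-gene cells (1044 cells, median depth 44735 UMIs) and in 42.8% of all its cells (median depth 22212). Free RNA in the droplets adds such counts to cells that do not express a gene, and its part in the Mll4-label Ighm level was not tested.

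Heavy chain variable segments were counted as separate genes. UMIs of 185 annotated Ighv segments totalled 1131, 1021, 5816 and 152597 in the control, Mll3-label, Mll4-label and Mll3/4-label libraries, and a segment was detected in 4.37%, 5.67%, 8.45% and 99.6% of kept cells. In the Mll3/4-label library a cell carried UMIs of a median of 11 different segments. The most abundant was Ighv1-66, with 25.1% of the UMIs and detection in 4663 cells. Counts at the 3-prime end do not show whether Ighm or a segment was read from a joined gene or from an unjoined one, since both are transcribed in developing B cells.

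The members were next counted cell by cell. After thinning, at least 3 of the 8 were detected in 33 of 7260 control cells (0.455%, 0.313 to 0.638), 205 of 6084 Mll3-label cells (3.37%, 2.93 to 3.85), 54 of 4659 Mll4-label cells (1.16%, 0.872 to 1.51) and 4683 of 4715 Mll3/4-label cells (99.3%, 99.0 to 99.5). Before thinning the shares were 1.79%, 5.54%, 6.70% and 99.5%. The Mll4-label library is the deepest and fell below the Mll3-label library once depth was made equal. Of the cells with at least 3 members, 15 in the control, 15 in the Mll3-label, 31 in the Mll4-label and 1 in the Mll3/4-label library were high-immunoglobulin cells. Without such cells the shares were 0.249%, 3.14%, 0.508% and 99.4%.

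**Figure D2:**
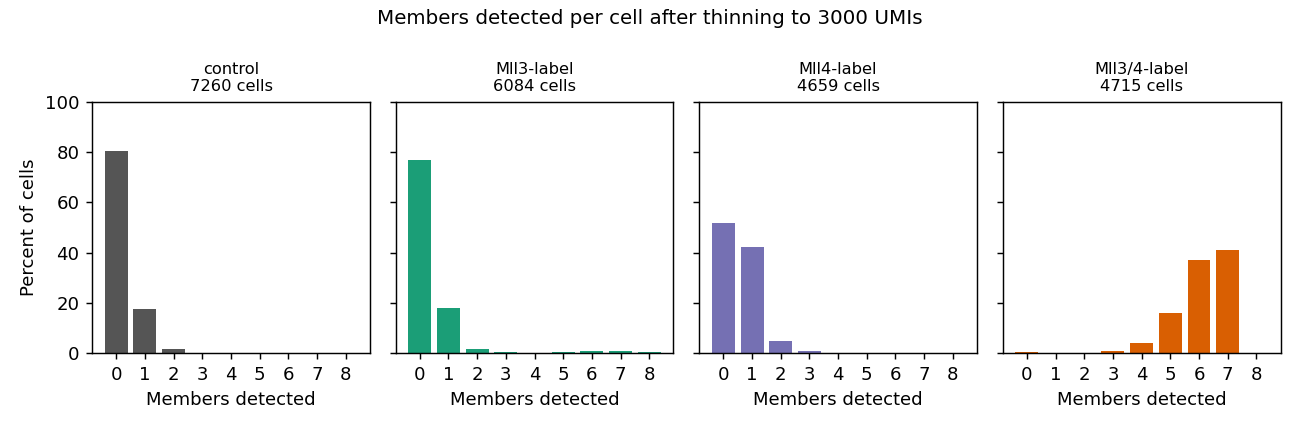
Percent of cells (vertical axis) by the number of members detected per cell after thinning to 3000 UMIs (horizontal axis), 1 panel per library. Most control, Mll3-label and Mll4-label cells hold 0 or 1 member, and the Mll3/4-label cells peak at 6 and 7.

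No member at all was detected in 80.5% of control, 77.0% of Mll3-label, 51.8% of Mll4-label and 0.382% of Mll3/4-label cells. Where exactly 1 was detected it was mostly Ighm (55.1%, 50.2% and 87.9% of such cells in the control, Mll3-label and Mll4-label libraries) or Cd79b (39.8%, 41.9% and 9.17%). Of the Mll3/4-label cells 40.9% held 7 members and 37.2% held 6. Only 5 of its cells held all 8, beside 5 control and 30 Mll3-label cells, since all 8 requires Vpreb2.

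Single shares show which members set these counts. Vpreb1 was detected in 0.923%, 3.57%, 0.472% and 98.2% of thinned cells in the control, Mll3-label, Mll4-label and Mll3/4-label libraries, and Cd79a in 0.551%, 3.57%, 2.08% and 99.4%. In granule-gene cells the Vpreb1 share was 0 of 97 in the control (which allows up to 3.09%), 3.03% of 99 in the Mll3-label and 0.383% of 1044 in the Mll4-label library. Median depths of these cells were 26361, 25843 and 44735 UMIs, against 14479, 15417 and 22212 over all thinned cells. The Vpreb1 shares over all cells of the control, Mll3-label and Mll4-label libraries lie within the intervals of their granule-gene cells or, in the control, under the limit. With 97 and 99 such cells in the control and Mll3-label libraries, these bounds are wide. The shares over all cells also include cells with other members: 66.4% of Mll3-label cells with Vpreb1 held Igll1. The comparison therefore cannot tell what a lone Vpreb1 UMI means, and none is read as expression. The Mll3/4-label library held 1 granule-gene cell and so offers no such comparison type.

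A stricter count asks for the whole receptor. The surrogate light chain, scored as Igll1 together with Vpreb1 or Vpreb2, was detected in 16 control, 146 Mll3-label, 7 Mll4-label and 4186 Mll3/4-label cells after thinning, or 0.220% (0.126 to 0.358), 2.40% (2.03 to 2.82), 0.150% (0.0604 to 0.309) and 88.8% (87.8 to 89.7). The intervals of the control and Mll4-label libraries overlapped. Of these cells 0, 2, 0 and 0 were high-immunoglobulin cells, and 16, 139, 7 and 4166 also held at least 1 of the 4 B markers. The full set of surrogate light chain, Ighm, Cd79a and Cd79b was detected in 13, 100, 5 and 2516 cells (0.179%, 1.64%, 0.107% and 53.4%). Without thinning it was found in 16, 170, 10 and 4205 cells.

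The members occurred in the same cells more often than their single shares would give. For all 28 pairs the number of cells with both exceeded the product of the single shares in the control, Mll3-label and Mll4-label libraries, with median ratios of 31.4, 17.9 and 10.6. The lowest ratio in each of these 3 was that of Ighm with Cd79b (1.48, 2.13 and 1.14), the members that were also found most often alone. Some Mll4-label pairs rest on few cells or a small excess. Vpreb2 with Igll1 was found in 3 cells there, and Vpreb1 with Ighm in 11 against 9.43 from the product. Igll1 was rarely without Vpreb1: 16 of 16 Igll1-positive control cells (100%) and 94.7% of 152 Mll3-label cells also held Vpreb1, while 23.9% of 67 and 66.4% of 217 Vpreb1-positive cells held Igll1. Where most members are near saturation, in the Mll3/4-label library, all 28 pairs exceeded the product too, but by little, with a median ratio of 1.01. Vpreb1 with Cd79a, for example, was found in 4621 cells there against 4599 from the product.

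Within the Mll3/4-label library the members differed in how evenly they were spread over the 4712 thinned cells that were not high-immunoglobulin cells. Cd79a had a median of 10 UMIs per cell with quartiles of 7 and 14, and Vpreb1 a median of 10 with quartiles of 6 and 14. The medians of Vpreb3, Igll1, Ighm, Blnk and Cd79b were 6, 3, 2, 2 and 1. The variance was 4.00 times the mean for Vpreb3, 3.54 for Vpreb1, 2.75 for Cd79a and 2.67 for Ighm, against 1.42 for Blnk, where counting alone gives a ratio near unity. The highest correlation over these cells was between Vpreb1 and Igll1 (Spearman 0.52), followed by Vpreb1 with Vpreb3 (0.33) and Cd79a with Cd79b (0.29). Ighm reached 0.14 at most with any other member. All points come from 1 library and 1 thinned depth.

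The heavy chain was not detected in 764 of those cells. The 3948 cells with Ighm had 1.12 times (1.10 to 1.15) the Vpreb1 level of those without it, 1.13 times (1.09 to 1.19) the Igll1 level and 1.28 times (1.20 to 1.37) the Cd79b level. Rag1, which cuts the segments to be joined, and Il7r, the receptor for the B-lineage growth factor interleukin 7, were 1.44-fold (1.34 to 1.54) and 1.43-fold (1.36 to 1.49) higher in cells with Ighm. Other genes were higher there too, such as Vpreb3 (1.23-fold) and Ebf1 (1.13-fold). The intervals of Pax5 (1.08, 0.995 to 1.18) and Igkc (0.981, 0.738 to 1.32) included equality. Igll1 stood at 1165 CPM in cells with Ighm and 1027 in cells without it, while Vpreb2 was low in both, at 0.929 and 0.436. In Mll3-label B-marker cells, 93 with and 15 without Ighm, the ratios of Rag1 and Il7r were 0.794 (0.433 to 1.57) and 0.833 (0.445 to 1.70).

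Levels over a whole library mix the number of cells and the level per cell, so the members were compared within B-marker cells, a class defined after the values had been seen. There were 13 control, 108 Mll3-label, 12 Mll4-label and 4036 Mll3/4-label B-marker cells. Exactly 2 of the 4 markers were held by 10, 79, 9 and 1598 cells, high-immunoglobulin cells included. In these cells the median thinned count over Mpo, Elane, Prtn3 and Ctsg was 0, 0, 1 and 0, and that over the light chain genes and Jchain 0, 0, 1 and 0. Their median depths were 21303, 21739, 27057 and 8544 UMIs.

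Between control and Mll3-label B-marker cells the members were close. Vpreb1 was at 1308 (974 to 1719) and 1602 (1467 to 1746) CPM, a ratio of 1.22 (0.918 to 1.67). Cd79a was at 1308 and 1435 (ratio 1.10, 0.821 to 1.5), Cd79b at 436 and 448 (1.03, 0.619 to 1.81), Ighm at 718 and 731 (1.02, 0.687 to 1.57) and Blnk at 205 and 284 (1.38, 0.674 to 3.3). The interval of Vpreb3 alone left out equality, with 1410 in the control and 929 in the Mll3-label cells (0.659, 0.493 to 0.895). Over whole libraries, by contrast, Vpreb3 was 7.91-fold higher in the Mll3-label library, which also had more B-marker cells.

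The level of most members per B-marker cell was higher as well in the Mll3/4-label library. Relative to Mll3-label B-marker cells, Cd79a was 2.67-fold (2.44 to 2.93), Vpreb3 2.56-fold (2.29 to 2.88), Blnk 2.29-fold (1.86 to 2.84), Vpreb1 2.21-fold (2.03 to 2.42) and Igll1 2.01-fold (1.74 to 2.33) higher. Ighm was 1.39-fold (1.23 to 1.59) and Cd79b 1.27-fold (1.07 to 1.5) higher. When at least 3 markers were required, which left 30 Mll3-label and 2438 Mll3/4-label cells, the ratios of Ighm and Cd79b were 1.07 (0.873 to 1.34) and 0.918 (0.712 to 1.21), and Vpreb1 was 1.69-fold higher. Vpreb2 went the other way, at 228 (179 to 287) CPM in Mll3-label and 0.908 (0.454 to 1.63) in Mll3/4-label B-marker cells, a ratio of 0.00398 (0.00190 to 0.00754), and of 0.000769 with at least 3 markers. In control B-marker cells Vpreb2 was at 308 (159 to 537). Relative to these 13 control cells, Blnk was 3.17-fold (1.61 to 7.34), Cd79a 2.93-fold (2.23 to 3.93), Vpreb1 2.71-fold (2.06 to 3.64), Vpreb3 1.69-fold (1.30 to 2.24) and Igll1 1.56-fold (1.08 to 2.33) higher in Mll3/4-label B-marker cells. The intervals of Ighm (1.42, 0.982 to 2.14) and Cd79b (1.30, 0.811 to 2.23) included equality.

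**Figure D3:**
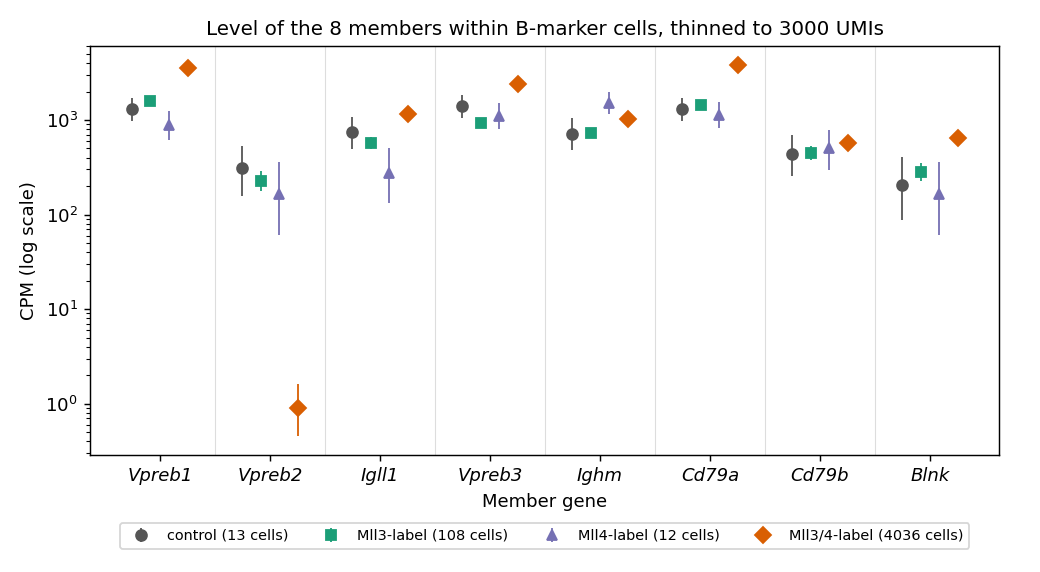
Level of each member in CPM (log axis) within B-marker cells after thinning to 3000 UMIs, with exact Poisson intervals and the number of cells in the legend. The libraries lie within a few-fold of each other for 7 members, and Vpreb2 of the Mll3/4-label cells lies at 0.908 against 167 to 308 in the others.

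B-marker cells also differed between libraries in genes and proteins of the sort. Kit was at 51.3 (6.21 to 185), 37.0 (19.1 to 64.7), 250 (114 to 475) and 291 (282 to 301) CPM in control, Mll3-label, Mll4-label and Mll3/4-label B-marker cells, where cells without any member had 240, 247, 669 and 333 in the same libraries. The Mll4-label value in B-marker cells rests on 9 UMIs in 3 cells. Surface CD117, the Kit protein, had a median antibody count of 49.0, 71.0, 78.5 and 491 per B-marker cell, and of 226 per control cell without a member. CD48, a marker that stem cells lack, had medians of 2633, 4029, 3012 and 99.0 in the same cells. Mll3/4-label B-marker cells were thus the highest of the 4 in CD117 and the lowest in CD48, and CD34 was low there too, at a median of 12.0. In every library the B-marker cells had a lower CD117 median than the cells without members beside them. The medians of the latter were 226, 430, 190 and 582, the last on 18 cells.

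Gates set on surface CD150, CD48 and CD135, with 1 threshold per antibody for all libraries, were used to place the cells. In the stem cell gate (HSC, CD150+CD48-CD135-) at least 3 members were detected in 1 of 2045 control, 0 of 3021 Mll3-label and 0 of 420 Mll4-label cells, where the zeros allow shares of up to 0.0993% and 0.714% (3 counts of the total), but in 467 of 474 Mll3/4-label cells (98.5%, 97.0 to 99.4). In the Mll3-label library such cells lay in the CD48-positive and CD135-positive gates: 8.21% of MPP2 (CD150+CD48+CD135-), 8.99% of MPP3 (CD150-CD48+CD135-) and 11.7% of MPP4 cells (CD150-CD135+), where the control had 0.207%, 0.692% and 1.17%. The Mll4-label library had 0.939%, 1.25% and 2.65%. These shares depend on the thresholds: with thresholds set per library the Mll3-label shares were 3.37%, 4.77% and 9.0%, those of the control 0.423%, 0.233% and 1.04%, and those of the Mll4-label library 0.787%, 0.596% and 1.76%. In the Mll3/4-label library the share was 97.3% to 98.5% in HSC, MPP2 and MPP3 gates and 99.6% in MPP4. Members were thus detected in nearly every cell of these gates. However, 58.1% of its thinned cells were CD150+CD135+ and lay outside these gates, against 1.32% in the control. Among those Mll3/4-label cells the share with at least 3 members was 99.9%. With thresholds per library, 25.8% of Mll3/4-label and 11.5% of control cells were CD150+CD135+. Members and antibodies were read from the same cells, and the Mll3/4-label library had the lowest antibody total, 6135915 counts against 11939331 to 13605600.

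**Figure D4:**
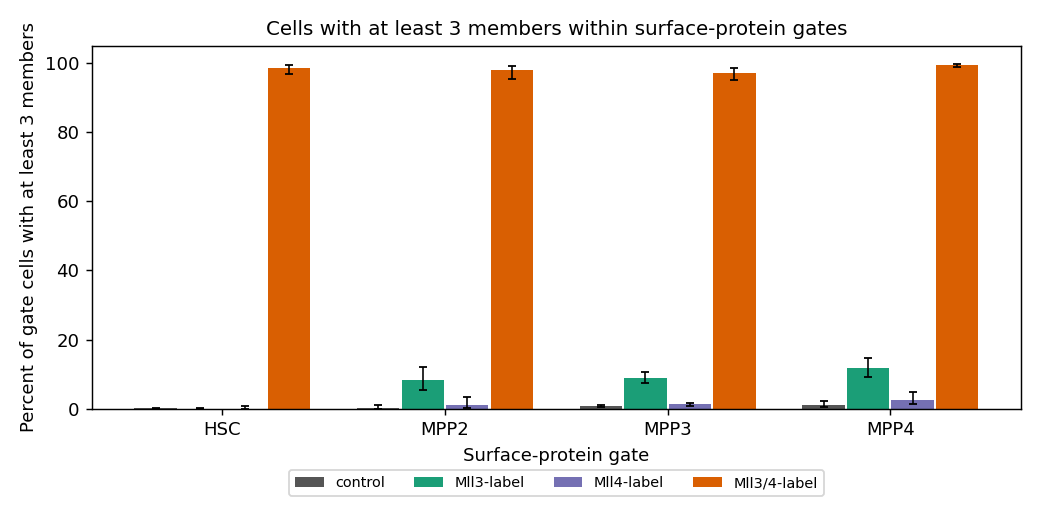
Percent of cells with at least 3 members detected after thinning (vertical axis, bars from 0 with exact binomial intervals) in 4 surface-protein gates, by library. The Mll3/4-label bars lie between 97.3% and 99.6%, the Mll3-label bars reach 11.7% in MPP4 and 0% in HSC.

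Genes most like the members were sought by a fixed rule, as the 10 genes with the highest log2 ratio between cells with at least 3 members and cells with 0. In the Mll3-label library (205 against 4683 cells) they included Pou2af1, Ebf1, Cecr2, Lef1, Pax5, Mzb1, Gfra2, Akap12 and Bfsp2. Ebf1, a factor that specifies the B lineage, was at 754 against 0.356 CPM and was detected in 163 of the 205 cells. Pou2af1, a coactivator of octamer-binding factors, was at 122 against 0 and was found in 60 of them. In the control (33 against 5841 cells, the former including 15 high-immunoglobulin cells) they were Cecr2, Pax5, Mzb1, Rag1, Pou2af1, Ebf1, Prg2, Tnfrsf17, Slamf6 and Eaf2. The lists shared 5 of 10 genes. Tnfrsf17, a plasma cell receptor gene, rests on 8 UMIs.

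The pathway around the receptor was followed through 24 listed genes, of which 16 averaged 20 CPM or more. Some, such as Bach2, did so only through the Mll3/4-label library (95.7 there, against 8.57 to 11.7 in the others). Of these 16, at least 2-fold above control were 0 in the Mll3-label (1.09% of all genes with that level), 3 in the Mll4-label (4.98%) and 6 in the Mll3/4-label library (6.07%). At least 2-fold below were 0, 1 and 5 of the 16, against 0.457%, 3.28% and 10.5% of all genes. Over all 24, genes of low level included, the counts were 2, 10 and 8 above and 1, 1 and 10 below. Median log2 ratios of the 24 were -0.08, 0.63 and -0.46. The Mll3/4-label library, in which the receptor genes were highest, thus had pathway genes in both directions.

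Among the 12 kinases and adaptors, Btk, the kinase that activates phospholipase C gamma downstream of Blnk, stood at 47.8, 41.5, 74.0 and 2.09 CPM in the control, Mll3-label, Mll4-label and Mll3/4-label libraries, and Plcg2, that phospholipase, at 62.6, 59.1, 49.4 and 10.0. Both were lowest in the Mll3/4-label library, by log2 ratios of -4.51 and -2.64. Syk, the kinase that binds the Cd79 tails, was at 51.3, 39.7, 78.9 and 27.8, within 2-fold of control in all 3. Blk, a Src-family kinase gene of B cells, was at 0.251, 1.14, 0.837 and 0.0197, the last on 1 UMI (0.0783-fold of control, 0.00192 to 0.471). In the Mll3/4-label library Fyn, Pik3ap1 and Prkcb were at least 2-fold higher and Blk, Btk, Plcg2, Vav1 and Grb2 at least 2-fold lower. Grb2 lay at the border, at 0.498-fold.

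Of the 6 inhibitors, Ptpn6, the phosphatase SHP-1, was at 102, 95.8, 93.0 and 6.71 CPM, a log2 ratio of -3.92 in the Mll3/4-label library. Dok3 and Fcgr2b were lower there too (log2 -1.48 and -1.72) and higher in the Mll4-label library (2.37 and 3.14). Cd72 was at 43.1, 36.1, 16.6 and 55.6, and Cd22 was near 0 in all 4 libraries, at 0.0335 to 0.265 on 4 to 32 UMIs. Of the 6 downstream factors and cycle genes, Ikzf1, Irf4, Bach2 and Ccnd3 were at least 2-fold above control in the Mll3/4-label library and Ikzf3 and Bcl6 at least 2-fold below. Bach2, a repressor active at the pre-B checkpoint, stood at 10.6, 8.57, 11.7 and 95.7, and Ikzf3, the Aiolos gene that is induced by pre-B receptor signals, at 0.327, 0.302, 4.85 and 0.0788, the last on 4 UMIs. Granulocyte-monocyte, neutrophil, monocyte and mast cell markers were also at least 2-fold higher in the Mll4-label library, for 19 of 19 listed genes. In the Mll3/4-label library 17 of those 19 were at least 2-fold lower. The part of these cell types in the pathway levels was not tested.

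**Figure D5:**
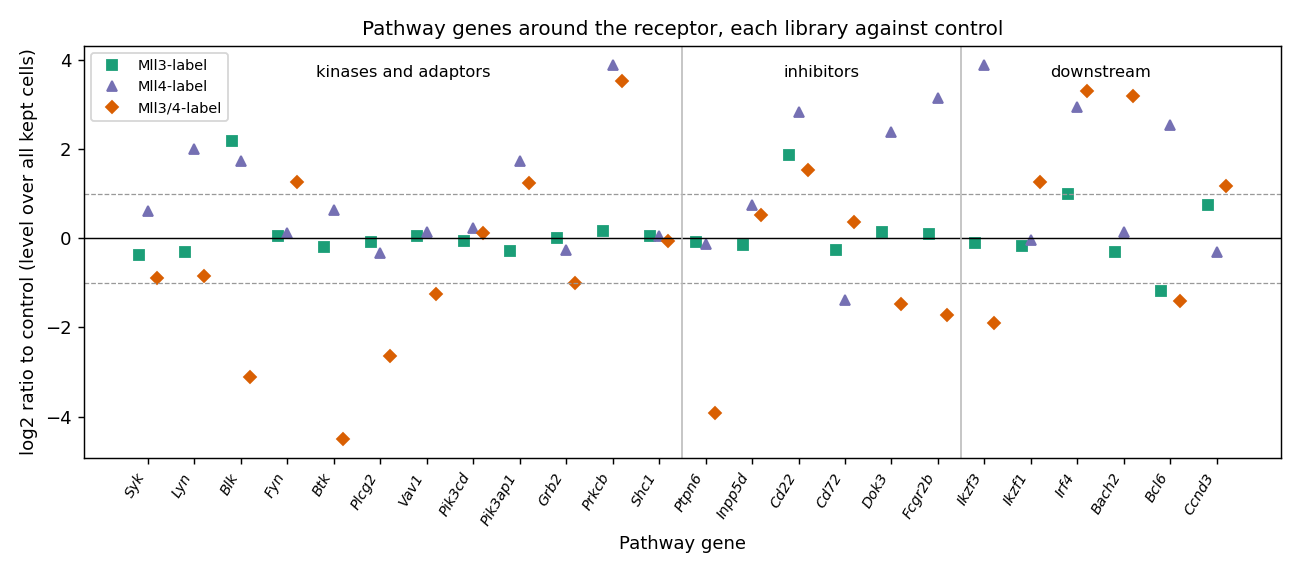
log2 ratio to control over all kept cells (vertical axis) for 24 pathway genes in 3 groups, 1 symbol per library, with dashed lines at 2-fold. Mll3-label symbols lie within the dashed lines apart from Blk, Cd22 and Bcl6, while Mll3/4-label symbols range from -4.51 (Btk) to 3.52 (Prkcb).

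The listed B-lineage markers, apart from the members, ran in the same order as the surrogate light chain at the top of the scale. Summed over 10 genes they stood at 214 CPM in the control, 313 in the Mll3-label, 272 in the Mll4-label and 5109 in the Mll3/4-label library. Outside the Mll3/4-label library the sum was, in that order, mostly Dntt (106, 178 and 42.3) and Cd93 (93.6, 66.1 and 162). In the mutant libraries 6, 4 and 8 of the 10 were at least 2-fold above control. At least 2-fold lower were Cd93, a surface protein gene of early B cells and other progenitors, in the Mll3/4-label library (2.46 against 93.6 CPM in the control), Ms4a1 there as well (0.0788 against 0.360, on 4 UMIs), and Dntt in the Mll4-label library (42.3 against 106). Of the 8 listed markers that averaged 20 CPM or more, 5, 2 and 7 were at least 2-fold higher (1.09%, 4.98% and 6.07% of all genes) and 0, 1 and 1 lower. Several of the 8 reached that mean only through the Mll3/4-label library, so the 7 there are partly set by the filter. Pax5, for example, was at 285 CPM there and at 0.612, 6.52 and 0.713 in the control, Mll3-label and Mll4-label libraries. Summed mature B and plasma cell markers were at 2464, 4289, 9346 and 753. This sum is mostly Igkc, at 562 CPM in the Mll3/4-label library against 2078 in the control. Of the 6 genes, Igkc and Jchain were at least 2-fold lower there, Ighd (20.9 against 0.377) and Cr2 (2.91 against 1.40) at least 2-fold higher, and 2 neither. HSC markers summed to 524, 561, 313 and 68.1, and 6 of 7 were at least 2-fold lower in the Mll3/4-label library, with none of the 7 listed at 0.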

How the data were processed

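Per the file headers, the deposited matrices were written by Cell Ranger 6.1.1 and hold UMI counts per gene and counts per antibody for each barcode. Per the submitters' processing notes, the build was mm10. Per the labels' protocols, libraries were 10x Genomics 3-prime droplets with feature barcodes. How the authors chose the deposited barcodes is not given in the sources used here. Barcodes were kept from 1000 genes upward and up to 10% mitochondrial UMIs. Doublets were not called.

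UMIs were summed per library and divided by the library total (CPM). Ratios are log2 values with 0.5 UMIs added to each sum. Intervals are exact Poisson, exact binomial (Clopper-Pearson) or, for ratios, conditional binomial. For shares of cells, each cell was thinned to 3000 UMIs, which left out 14, 17, 134 and 33 cells (control, Mll3-label, Mll4-label, Mll3/4-label). Antibody counts were turned into centred log ratios over 6 antibodies. Of the gene identifiers, 32158 (99.6%) matched GENCODE on GRCm38.

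Members, lists, classes and rules were chosen with earlier results of these data known. Named are the 8 members, the pathway list, immunoglobulin genes, Kmt2c, Kmt2d, Kit, Ly6a and the 10 genes most like the members. Genes beyond that rule, such as Il7r and the surface-marker genes, come from the marker lists or antibodies. A few listed genes are not reported here. The 2-fold rule was run on simulated counts with counting error alone. They held no spread between mice, libraries or cells, so the run says nothing about such spread. Python 3.11.15, edgeR 4.0.16 (TMM factors) and DESeq2 1.42.0 (size factors) were used. Alternatives were other cell filters, scalings, weights, thinning depths, gate thresholds and cells left out.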

Additional observations from a re-analysis of the deposited data

How the results depend on the processing

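The count of members at least 2-fold above control stayed at 6 or 7 in the Mll3-label and Mll3/4-label libraries under every alternative run. In the Mll4-label library it was 2, but 3 without the cells with the most UMIs and with equal weight per cell, 0 at 4-fold and 1 without high-immunoglobulin cells (an alternative chosen after seeing the data, like those on the pathway, the Vpreb2 share, the surrogate light chain and the B-marker cut). Of 216 recomputed single-gene ratios, 128 lay within the main interval, 84 moved and 4 reversed, the last all in the Mll4-label library: Vpreb3 (log2 0.03 without the cells with the most UMIs and 0.29 with equal weight per cell, against -0.35) and Cd79a (-0.84 without cells with 10 or more immunoglobulin UMIs and -0.45 without those with 1000 or more, against 0.74). Cd79b in B-marker cells reversed to 0.918 with 3 markers. Ighm in the Mll3/4-label library ranged from log2 0.19 to 4.05, the highest without cells with 10 or more immunoglobulin UMIs.

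The percent of cells with at least 3 members is given in the order control, Mll3-label, Mll4-label, Mll3/4-label where it moved. It was 0.261, 2.49, 0.334 and 94.2 at 1000 UMIs, 1.79, 5.54 and 6.70 (first 3 libraries) without thinning, and 0.220, 2.71, 0.322 and 97.6 with detection at 2 UMIs. With the stricter filter it was 0.664 (control) and 4.81 (Mll3-label), and without the cells with the most UMIs 99.7 (Mll3/4-label). In control and Mll4-label cells it was 0.234 and 0.429 without Ighm, 0.249 and 0.329 without cells with 10 or more immunoglobulin UMIs, and 0.249 and 0.508 without those with 1000 or more. The surrogate light chain share was 2.84 and 96.7 (Mll3-label, Mll3/4-label) without thinning, and 0.366, 3.53 and 89.9 (control, Mll3-label, Mll3/4-label) with the stricter filter. With thresholds per library the Mll3-label shares were 3.37 (MPP2), 4.77 (MPP3) and 9.0 (MPP4), and the MPP3 shares of the control and Mll4-label libraries 0.233 and 0.596. The Vpreb2 share in the Mll3/4-label library was 0.0127% without the cells with the most UMIs. Pathway genes in the Mll3-label library numbered 0 lower with the stricter filter and 4 higher without high-immunoglobulin cells. The cause of these shifts was not tested. No paired analysis was possible because each group has 1 library.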
